A study of Mus musculus with 7 samples.

Results

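The 32 genes described here lie next to the Rosa26 locus of the mouse, on chromosome 6, and were taken by symbol from the 31253 gene IDs measured in the series. They are Gt(ROSA)26Sor, the noncoding RNA gene of the locus itself, and 31 protein-coding neighbours from Rad18 to Timp4, which span 2.66 Mb (mm10, chromosome 6 from 112619850 to 115282006, GENCODE M21). The members were chosen by position, but 18 other measured genes between the outermost of them were not taken. The choice was made with earlier results of these data known. All 32 had UMIs in both genotypes.

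Droplet-based 3' RNA sequencing of single lung cells was done in 7 mice, each giving its own library. In 4 of them, Smad4fl/fl;Rosa26-creERT2 (called Smad4iko), both Smad4 alleles were floxed and Rosa26 held creERT2, a Cre recombinase switched on by tamoxifen; the 3 Smad4fl/fl mice were floxed littermates with no Cre. Tamoxifen went to all 7, at 75 mg/kg in 5 intraperitoneal injections from postnatal day 21 to day 26. Their peripheral lung was collected at the age of 8 weeks. The labels name 7 mouse samples and give neither the number of creERT2 copies nor the strain around them. Deletion of Smad4, presence of creERT2 and any DNA that came with the Rosa26 allele therefore cannot be told apart in this design. The labels name lung as the tissue, and cells with defining markers of lung capillaries, alveolar macrophages and type 2 epithelium were found in every library.

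Rosa26 is widely used as a site for transgenes because its promoter is active in nearly all cell types, and a cassette placed there can be read in most tissues. Gt(ROSA)26Sor is transcribed towards lower coordinates, its start lies 32 bp from that of Setd5, which runs the other way, and its 3' end overlaps that of Thumpd3 from 113067428 to 113068273. The neighbours have no shared function: they include chromatin regulators, DNA repair factors, actin and tubulin regulators, proteins of the endoplasmic reticulum and signalling proteins. DNA close to a targeted locus is usually inherited together with it.

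A further 2 pairs of members start head to head, like Gt(ROSA)26Sor and Setd5, so that a short stretch of DNA holds both starts. Emc3, a subunit of the complex that inserts membrane proteins into the endoplasmic reticulum, and Fancd2, a DNA crosslink repair protein, start 30 bp apart. Arpc4, a subunit of the Arp2/3 complex that branches actin filaments, and Tada3, a subunit of histone acetyltransferase complexes, start 232 bp apart. The sequences of these stretches are shown because each is the putative promoter of a pair of members whose levels are set out further on; they were taken from the RefSeq promoter table (GRCm38.p6), and capitals mark the bases from one start to the other.
Emc3 and Fancd2 (chr6:113531589-113531888, minus strand): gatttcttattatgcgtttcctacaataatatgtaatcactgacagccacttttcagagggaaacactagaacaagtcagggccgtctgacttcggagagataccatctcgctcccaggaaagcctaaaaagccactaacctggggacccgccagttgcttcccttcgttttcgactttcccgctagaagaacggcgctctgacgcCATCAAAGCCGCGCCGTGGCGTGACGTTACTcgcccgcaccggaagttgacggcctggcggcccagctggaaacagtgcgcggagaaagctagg
Arpc4 and Tada3 (chr6:113377863-113378162, plus strand): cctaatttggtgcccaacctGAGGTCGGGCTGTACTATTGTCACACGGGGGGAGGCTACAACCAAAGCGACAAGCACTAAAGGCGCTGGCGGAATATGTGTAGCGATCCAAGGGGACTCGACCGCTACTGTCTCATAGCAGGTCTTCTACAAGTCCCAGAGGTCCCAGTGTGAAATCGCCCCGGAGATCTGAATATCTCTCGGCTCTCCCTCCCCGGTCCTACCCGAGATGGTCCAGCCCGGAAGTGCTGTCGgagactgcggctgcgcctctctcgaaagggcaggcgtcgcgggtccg
The first window holds 23 CG dinucleotides and is 54.3% G or C, and the second holds 22 and is 59.7%, against a median of 7 CG dinucleotides over the 32851 promoters of the table. Neither holds the letters TATAAA on either strand, which 13.6% of those promoters do. The table had an entry for 29 of the 32 members.

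The libraries held 46449235 to 66557262 UMIs in 55671 barcodes, and 49671 cells were kept (6378 to 8142 per library; median 4463 to 6324 UMIs per cell). Pairs of libraries shared 9 to 23 barcodes. Smad4, the deleted gene, stood at 78.5, 86.3 and 85.8 UMIs per 1000000 (CPM) in the Smad4fl/fl libraries and at 60.9, 54.3, 41.3 and 55.95 CPM in the Smad4iko libraries. Smad4fl/fl 1 stood apart, with 72.3% of its cells passing a marker gate against 87.6 to 91.8% elsewhere and more capillary cells and fibroblasts. Its summed level of 14 dissociation response genes was 16680 CPM, against 8579 to 9583 CPM elsewhere. Smad4iko 3 and 4 stood apart within the T cell gate, where the same genes reached 6169 and 6468 CPM against 3416 to 4677 CPM in the other 5 libraries. Smad4fl/fl 3 and Smad4iko 3 were female by Xist and Ddx3y, and the others male.

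The first question was whether any of these genes differed in level between the genotypes in whole lung libraries. None of the 32 was called (edgeR quasi-likelihood test on summed UMIs, Benjamini-Hochberg over 16152 genes, threshold 0.05), and none of the 16152 genes was called either (0%). At an unadjusted p under 0.05 stood 1 of 32 members, against 5.24% of all genes tested. DESeq2 called no member, against 0.33% of genes, and gave 2 of 32 members an unadjusted p under 0.05, against 1535 of 24623 genes. The 2 genotypes did not overlap for 4 members, all lower in Smad4iko, against 6.99% of all genes in either direction and 4.54% lower.

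Gt(ROSA)26Sor stood at 25.7, 56.7 and 39.8 CPM in Smad4fl/fl 1 to 3 and at 29.0, 27.3, 27.9 and 23.9 CPM in Smad4iko 1 to 4. The Smad4iko libraries lay close together at the lower end of the wide range of the controls, with Smad4iko 4 below it and the other 3 above Smad4fl/fl 1. The log2 difference, Smad4iko minus Smad4fl/fl, was -0.45 ± 0.28 (SE, edgeR adjusted p = 0.635), and -0.16 without Smad4fl/fl 2. The members without overlap were Thumpd3, a putative RNA methyltransferase, Emc3, Vgll4, a cofactor that represses TEAD transcription factors, and Prrt3, a membrane protein of little known function. Vgll4 had 122, 129 and 160 CPM against 109, 79.9, 94.5 and 102 CPM (log2 difference -0.37 ± 0.16, edgeR adjusted p = 0.635). Prrt3 had 139 UMIs in all, at 0.623, 0.628 and 0.481 CPM against 0.182, 0.134, 0.205 and 0.393 CPM (log2 difference -1.17 ± 0.41, edgeR adjusted p = 0.635).

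Setd5, a SET domain protein of chromatin, showed how far 1 library could set such a value. It stood at 129, 52.2 and 49.6 CPM in Smad4fl/fl and at 61.9, 51.3, 39.6 and 43.0 CPM in Smad4iko. Its high value belonged to Smad4fl/fl 1, and the log2 difference of -0.46 ± 0.31 became 0.02 without that library. In each of the 9 gated cell types Smad4fl/fl 1 was again the highest of the 7 libraries for Setd5. For Gt(ROSA)26Sor, whose start is 32 bp away, Smad4fl/fl 2 was the highest in 7 of the 9 and Smad4fl/fl 1 in 1.

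To hold the makeup of the libraries apart, cells were gated by marker genes and UMIs were summed per mouse and cell type. In 9 gates every library held at least 30 cells: T cells, NK cells, B cells, neutrophils, alveolar macrophages, general and aerocyte capillary endothelium, fibroblasts, and a gate set by Cd209a, Mgl2, Clec10a, Flt3 and Kmo. The last was laid out for type 2 conventional dendritic cells, but Siglech, Ccr9 and Cox6a2, known from plasmacytoid dendritic cells, were among its leading genes, so it is called here the Cd209a-Flt3 gate. Of the 32 members, 29 had enough UMIs to be tested in at least 1 gate, giving 176 tests, and Prrt3, Atp2b2 and Hrh1 were tested in none.

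No member passed the adjusted threshold in any gate with edgeR, against 28 of the 78797 tests of all genes (0.0355%). At an unadjusted p under 0.05 stood 16 of 176 member tests (9.09%), against 6.91% of all tests, 4 of them higher and 12 lower in Smad4iko (3.14% of all tests were lower at that p). The genotypes did not overlap in 20 member tests (11.4%), against 7.97% of all, with 5 higher and 15 lower (3.46% and 4.51% of all tests). Overlap was judged on CPM, which, unlike the fits, scale by total UMIs alone. The members lay on the lower side in 119 of 176 tests (67.6%), against 49.3% of all tests. Without Smad4fl/fl 1 this share was 57.6% against 49.1%, and with library-size scaling it was 70.5% against 54%. Genes, and gates of the same mouse, are not independent, so these shares are descriptions.

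**Figure D1:**
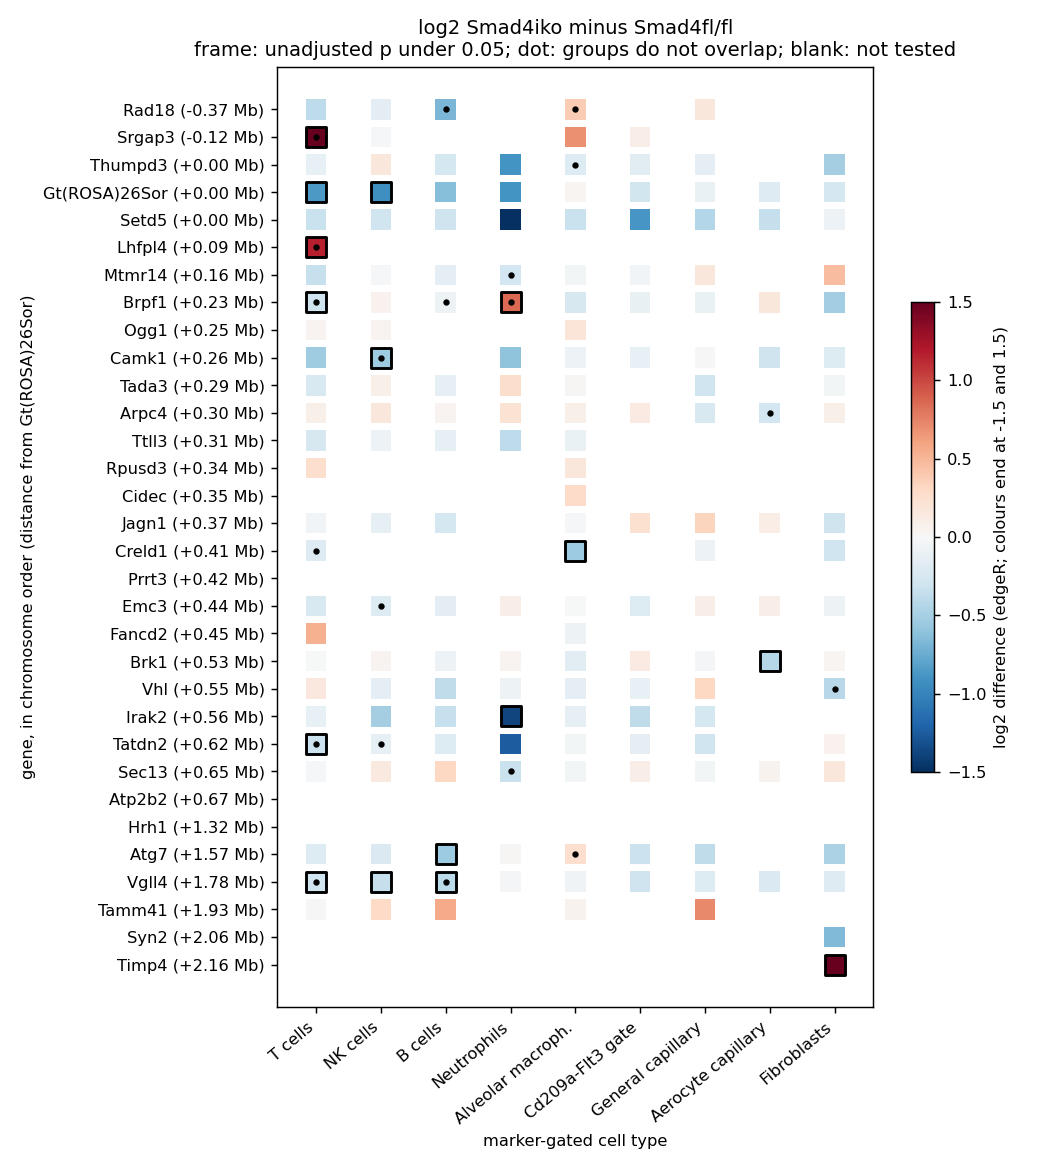
Fitted log2 difference (Smad4iko minus Smad4fl/fl; colour, ending at -1.5 and 1.5) of each gene, in chromosome order from top to bottom, in each of the 9 marker-gated cell types; frames mark an unadjusted p under 0.05, dots mark genotypes that did not overlap, and blanks were not tested. The 16 frames are spread over 7 of the 9 cell types, 6 of them in T cells, and none passed the adjusted threshold.

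The RNA of the locus itself, Gt(ROSA)26Sor, was found in all 14 gates laid out, the 5 untested ones included, where it stood at 22.6 to 28.6 CPM over the pooled libraries. In T cells it had 37.8, 93.3 and 59.7 CPM in Smad4fl/fl and 34.5, 42.8, 29.6 and 28.8 CPM in Smad4iko, a log2 difference of -0.87 ± 0.29 (edgeR adjusted p = 0.414). In NK cells the values were 37.1, 61.7 and 46.3 against 20.9, 39.2, 21.3 and 21.9 CPM, a log2 difference of -0.92 ± 0.26 (edgeR adjusted p = 0.600). The lowest control lay below the highest Smad4iko library in both, so the genotypes overlapped.

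B cells had 22.7, 73.5 and 39.7 CPM of Gt(ROSA)26Sor against 25.8, 20.6, 31.998 and 31.0 CPM (log2 difference -0.64 ± 0.35, edgeR adjusted p = 0.735). Here Smad4fl/fl 1 lay below 3 of the Smad4iko libraries, and without Smad4fl/fl 2 the log2 difference was -0.02. Without that library it was -0.40 in T cells and -0.63 in NK cells. Alveolar macrophages had 18.3, 32.5 and 24.5 CPM against 28.6, 30.1, 29.3 and 19.7 CPM, a log2 difference of 0.03 ± 0.23. Neutrophils were lowest, at 12.7 ± 8.74 CPM (SD, n = 3) against 5.52 ± 0.788 CPM (SD, n = 4), from 147 UMIs in all. In the remaining 4 gates the log2 difference lay between -0.29 and -0.10.

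With all libraries the value was thus lower in 8 of the 9 gates, with overlap in each. Without Smad4fl/fl 1 it was lower in 9 of 9. Over single left-out libraries it reached -1.16 in T cells, -1.11 in NK cells and -0.96 in B cells. Other left-out libraries shrank or turned it. In general capillary cells it turned to 0.0032 without Smad4fl/fl 2, to 0.050 without Smad4fl/fl 3 and to 0.086 without Smad4iko 4, and in fibroblasts to 0.105 without Smad4iko 3 and 4 together. Without Smad4fl/fl 1 it was -0.31 in neutrophils, and without Smad4fl/fl 2 it was -0.0088 in the Cd209a-Flt3 gate and -0.095 in aerocytes. The effect in alveolar macrophages minus that in T cells was 0.79 ± 0.22 on the log2 scale (limma adjusted p = 0.500, unadjusted p = 0.00618), so a difference between these cell types was not shown. Counting by strand is not given in the sources used here. It is therefore not known whether reads of Gt(ROSA)26Sor and of the overlapping end of Thumpd3, on the other strand, were kept apart. Thumpd3 itself was lower without overlap only in alveolar macrophages among the 8 gates that tested it, at 26.3, 25.7 and 27.7 CPM against 25.2, 23.2, 22.6 and 25.6 CPM (log2 difference -0.21 ± 0.10, edgeR adjusted p = 0.800).

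**Figure D2:**
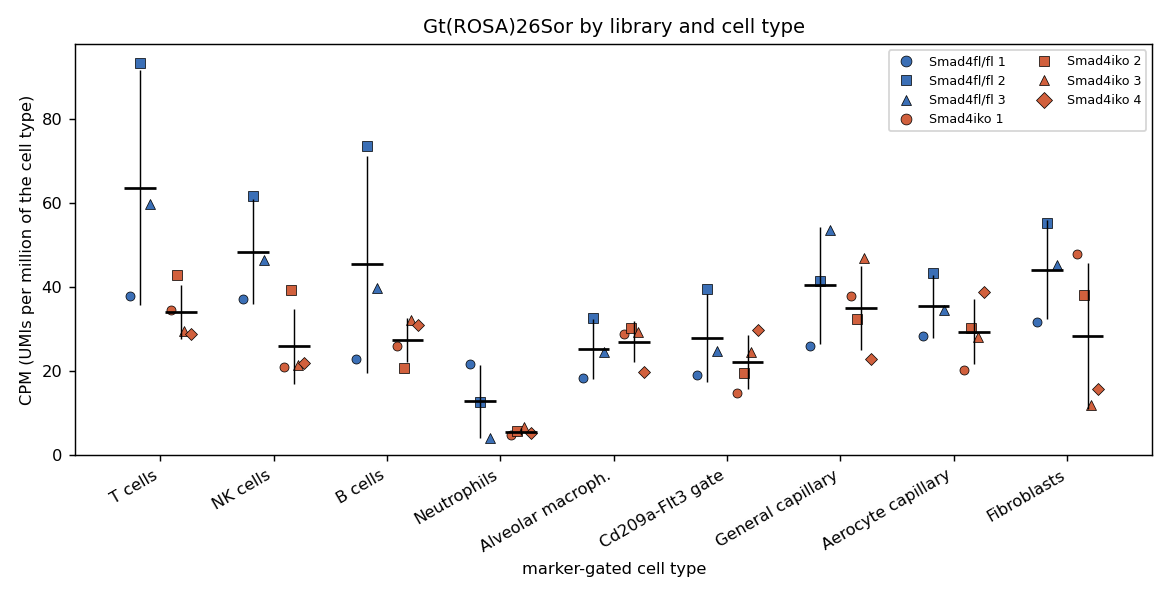
Gt(ROSA)26Sor in CPM (UMIs per 1000000 UMIs of the gated cell type, vertical axis) in each of the 9 marker-gated cell types, with 1 point per library, the bar at the group mean and the line spanning 1 SD to each side. In T, NK and B cells the square of Smad4fl/fl 2 is the highest point (93.3, 61.7 and 73.5 CPM), and the groups overlap in every cell type.

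The 4 members of the next group act on chromatin and transcription: Setd5, Brpf1, a scaffold of MOZ and MORF histone acetyltransferases, Tada3 and Vgll4. They were lower in 28 of their 34 tests and higher in 6, with 5 tests at an unadjusted p under 0.05, against 49.3% lower and 6.91% at that p over all genes tested in the gates. Of the 28, 9 were tests of Setd5; without Smad4fl/fl 1 the group was lower in 17 and higher in 17 tests, and Setd5 was lower in 1 of 9. Vgll4 was lower on average in all 9 gates, and in 8 of 9 without Smad4fl/fl 1. In T cells it had 274, 229 and 242 CPM against 208, 194, 185 and 174 CPM, with every Smad4iko library below every control (log2 difference -0.30 ± 0.10, edgeR adjusted p = 0.428).

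The B cells showed the same separation for Vgll4, with 175, 154 and 196 CPM against 113, 106, 130 and 126 CPM (log2 difference -0.41 ± 0.15, edgeR adjusted p = 0.659). In NK cells, where its level was highest, it had 447, 314 and 422 CPM against 324, 267, 274 and 273 CPM (log2 difference -0.36 ± 0.14, edgeR adjusted p = 0.665). Here 1 Smad4iko library lay above the lowest control. Outside the lymphocytes its log2 difference was between -0.31 and -0.03, with overlap. Of the alternatives tried, each kept the lower direction of Vgll4 in these 3 lymphocyte types, and none brought it past the threshold.

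Brpf1 lay in opposite directions in 2 cell types. In neutrophils it had 8.38, 7.85 and 6.80 CPM against 13.4, 12.2, 11.4 and 12.6 CPM, with every Smad4iko library above the controls (log2 difference 0.87 ± 0.30, edgeR adjusted p = 0.437). In T cells it had 38.2, 28.0 and 29.1 CPM against 23.7, 25.0, 22.8 and 24.3 CPM, with every Smad4iko library below (log2 difference -0.31 ± 0.13, edgeR adjusted p = 0.480). The effect in neutrophils minus that in T cells was 1.15 ± 0.26 on the log2 scale (limma adjusted p = 0.351), which did not pass the threshold. Tada3 was tested in 7 gates, with log2 differences from -0.29 to 0.26 and no unadjusted p under 0.05.

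Srgap3, which encodes a GTPase-activating protein that shapes the actin cytoskeleton, gave the largest log2 difference and the lowest unadjusted p of the 176 member tests. In T cells it stood at 0.661, 1.20 and 1.43 CPM in Smad4fl/fl and at 3.83, 3.97, 3.18 and 5.23 CPM in Smad4iko, from 235 UMIs in all. Every Smad4iko library lay above every control, and the log2 difference was 1.90 ± 0.34 (edgeR unadjusted p = 3.14e-04, adjusted p = 0.0999), in a gate where 0.122% of all genes were called. It did not pass the threshold with edgeR, while DESeq2 called it (adjusted p = 9.53e-04), beside 1.07% of the genes DESeq2 adjusted in that gate. Without the filter on low counts edgeR called it as well (adjusted p = 0.0313), with 0.342% of genes.

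The level of Srgap3 was far from even across cell types. In the Cd209a-Flt3 gate it stood at 57.2 ± 5.62 CPM in Smad4fl/fl and 61.3 ± 2.44 CPM in Smad4iko (log2 difference 0.10 ± 0.19, edgeR adjusted p = 0.966), and in NK cells at 35.2 ± 10.1 and 33.4 ± 6.97 CPM (log2 difference -0.02 ± 0.25, edgeR adjusted p = 0.995; SD, n = 3 and 4). In aerocytes no UMI of it was found. The effect in NK cells minus that in T cells was -1.78 ± 0.24 on the log2 scale (limma adjusted p = 0.186, unadjusted p = 9.74e-05), the smallest adjusted p of the 147 member differences tested against T cells. None of the 147 was called, and 8 had an unadjusted p under 0.05 (5.44%), against 7.66% of all such tests. Over these 8 pairs 0 to 0.00985% of all genes were called.

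Because few T cells held Srgap3, the T cell gate was divided by UMIs of Trdc, Trdv4 or Trgv6, genes of the gamma-delta T cell receptor; this division was chosen after seeing the data. T cells with such a UMI made up 6.25 ± 1.74% (SD, n = 3) of the gate in Smad4fl/fl and 10.9 ± 2.70% (SD, n = 4) in Smad4iko, 354 and 838 cells. The shares overlapped and did not differ past the threshold (exact two-sided permutation test, p = 0.0857). With 3 against 4 mice the smallest one-sided p of such a permutation test is 0.0286, so this test and those that follow could miss a difference. A UMI of these genes was found in 0.102 to 1.03% of B cells (median 3331 to 5226 UMIs per cell) and 0.443 to 1.33% of alveolar macrophages (7888 to 14860 UMIs), which should lack them, against 4.67 to 13.95% of T cells (4859 to 7306 UMIs). This background was on average also higher in Smad4iko. Its means in Smad4fl/fl and Smad4iko were 0.395 and 0.658% in B cells and 0.715 and 0.931% in alveolar macrophages. In neutrophils they were 0.0909 and 0.394% (exact two-sided permutation tests, p = 0.400, 0.486 and 0.0857). In T cells with such a UMI Srgap3 stood at 2.78, 8.20 and 5.42 CPM in Smad4fl/fl, from 14 UMIs, and at 21.6, 23.7, 16.1 and 21.3 CPM in Smad4iko, from 124 UMIs. The groups were clearly apart there, with a log2 difference of 1.87 ± 0.36 that passed the threshold (edgeR adjusted p = 0.0161).

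In that subset 505 of 8119 genes were called (6.22%, against 0.122% in the whole T cell gate), so Srgap3 was 1 gene of many. Whether the kinds of cells in the subset differed between the genotypes was not tested. Srgap3 was the only one of the 18 members tested there to be called. T cells without a gamma-delta receptor UMI had 0.790 ± 0.269 CPM of Srgap3 in Smad4fl/fl and 1.68 ± 0.455 CPM in Smad4iko (log2 difference 1.13 ± 0.40, edgeR adjusted p = 0.742), without overlap. Il17re, a receptor subunit for interleukin-17C that lies among the members but is none of them, stood at 5.55, 2.57 and 6.41 CPM against 9.91, 7.25, 8.96 and 13.2 CPM in the whole T cell gate (log2 difference 1.13 ± 0.31, edgeR adjusted p = 0.308). In T cells with a gamma-delta receptor UMI it stood at 27.8, 13.7 and 49.5 CPM against 54.3, 37.3, 54.5 and 65.45 CPM, with overlap.

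**Figure D3:**
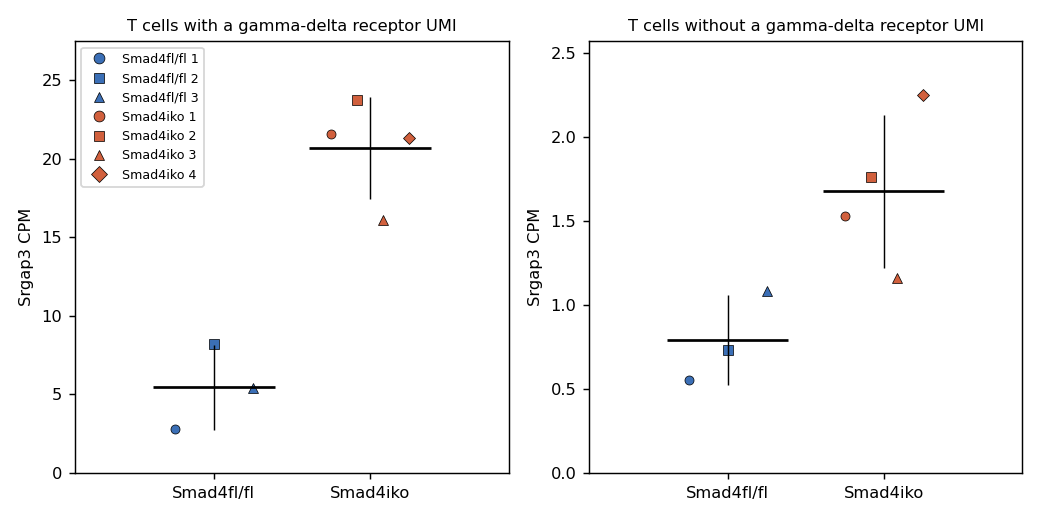
Srgap3 in CPM (vertical axes, which differ in scale) by genotype in T cells with (left) and without (right) a UMI of a gamma-delta receptor gene, with 1 point per library, the bar at the group mean and the line spanning 1 SD to each side. With such a UMI the controls lie between 2.78 and 8.20 CPM and the Smad4iko libraries between 16.1 and 23.7 CPM.

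The other members of the cytoskeleton group did not pass the threshold. Arpc4 and Brk1, subunits of the Arp2/3 and WAVE complexes, were tested in all 9 gates, and Ttll3, a tubulin glycylase, in 5. Brk1 had its lowest unadjusted p in aerocytes, at 227, 269 and 271 CPM against 171, 234, 188 and 182 CPM, with overlap at 1 library (log2 difference -0.42 ± 0.18, edgeR adjusted p = 0.502). Arpc4 was lower there too without overlap, at 254, 350 and 275 CPM against 246, 253, 236 and 235 CPM (log2 difference -0.28 ± 0.18, edgeR adjusted p = 0.649). Arpc4 overlaps Ttll3 on the same strand, so reads from their shared stretch could be split between them.

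The partners at a shared start stood at different levels, and Arpc4 and Tada3 also had different patterns over the cell types. Emc3 was tested in all 9 gates and stood between 20.4 ± 11.5 CPM in neutrophils and 186 ± 17.8 CPM in aerocytes of Smad4fl/fl mice (SD, n = 3). Fancd2, starting 30 bp away, had 418 UMIs in all and passed the filter in T cells and alveolar macrophages only. Its highest mean in Smad4fl/fl mice was 2.60 ± 0.388 CPM, in alveolar macrophages (SD, n = 3). It had no UMI in the 634 aerocytes, too few to read a level this low. Arpc4 stood at 500 ± 33.8 CPM in alveolar macrophages and 192 ± 19.0 CPM in general capillary cells of Smad4fl/fl mice, while Tada3 stood at 14.9 ± 1.32 and 40.4 ± 3.69 CPM in the same gates (SD, n = 3). None of these 4 genes differed between the genotypes past the threshold.

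Among the DNA repair members, Rad18, a ubiquitin ligase of damage tolerance, did not overlap in 2 of its 5 gates, in opposite directions. In B cells it had 29.0, 18.5 and 21.7 CPM against 18.1, 17.9, 5.87 and 10.7 CPM (log2 difference -0.69 ± 0.32, edgeR adjusted p = 0.706). In alveolar macrophages it had 4.94, 4.82 and 3.97 CPM against 5.95, 4.97, 7.003 and 7.11 CPM (log2 difference 0.38 ± 0.19, edgeR adjusted p = 0.808). Without Smad4iko 3 and 4 the B cell value was -0.26. Ogg1, the glycosylase that removes oxidised guanine, was tested in 3 gates and Fancd2 in 2, with no unadjusted p under 0.05. Of the RNA genes, Rpusd3, a mitochondrial pseudouridine synthase, was tested in 2 gates and overlapped in both.

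Of the 7 signalling and autophagy members, Atp2b2 and Hrh1 were tested in no gate. The others were lower in 32 of their 39 tests, against 49.3% of all tests. Without Smad4fl/fl 1 they were lower in 27 of 39, against 49.1% of all tests. Irak2, a kinase of interleukin-1 and Toll-like receptor signalling, was lower on average in all 7 gates that tested it. In neutrophils it stood at 298, 103 and 171 CPM in Smad4fl/fl and at 114, 74.6, 38.1 and 29.2 CPM in Smad4iko, where 1 Smad4iko library lay above the lowest control (log2 difference -1.38 ± 0.53, edgeR adjusted p = 0.483). The lowest libraries, Smad4iko 3 and 4, also had the highest level of dissociation response genes in neutrophils (16990 and 16700 CPM, against 5720 to 14930 CPM elsewhere), and the part of handling in this difference was not tested. Without them the log2 difference was -0.76, and without Smad4fl/fl 1 it was -0.94. With no filter on low counts edgeR called Irak2 and Setd5 in neutrophils, among 1.23% of the genes there.

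Camk1, a calcium- and calmodulin-dependent kinase, was lower without overlap in NK cells, at 22.9, 17.7 and 26.3 CPM against 13.99, 16.4, 15.03 and 12.3 CPM (log2 difference -0.55 ± 0.21, edgeR adjusted p = 0.665). In alveolar macrophages, where most of its UMIs lay, it stood at 183 ± 13.7 and 180 ± 8.93 CPM (SD, n = 3 and 4). Its 3' end overlaps that of Ogg1 on the other strand.

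Atg7, the enzyme that starts the conjugation steps of autophagy, went both ways. In alveolar macrophages it had 37.2, 36.0 and 40.2 CPM against 51.6, 49.2, 41.3 and 45.9 CPM, with no overlap (log2 difference 0.25 ± 0.12, edgeR adjusted p = 0.805). In B cells it had 23.3, 14.1 and 24.0 CPM against 13.3, 15.7, 11.4 and 8.45 CPM (log2 difference -0.55 ± 0.24, edgeR adjusted p = 0.706). Vhl, which marks hypoxia-inducible factors for destruction, had log2 differences from -0.42 to 0.31 over 8 gates, and Mtmr14, a phosphoinositide phosphatase, from -0.35 to 0.46 over 8. Hrh1, the histamine H1 receptor, had 60 of its 236 UMIs in the Cd209a-Flt3 gate, and Atp2b2, a plasma membrane calcium pump, had 139 UMIs in all.

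The 5 members of the endoplasmic reticulum, lipid and secretion group were lower in 19 and higher in 12 of 31 tests, against 49.3% lower over all tests. Creld1, a membrane protein known from heart valve development, had 5.42, 6.05 and 5.39 CPM in alveolar macrophages of Smad4fl/fl and 3.76, 3.57, 3.50 and 5.43 CPM in Smad4iko, where only Smad4iko 4 reached the controls (log2 difference -0.55 ± 0.21, edgeR adjusted p = 0.781). Cidec, a protein of lipid droplets, was a gene of alveolar macrophages: 13389 of its 14368 UMIs came from that gate, at 159 ± 24.5 CPM against 203 ± 37.4 CPM (SD, n = 3 and 4; log2 difference 0.29 ± 0.19, edgeR adjusted p = 0.868). Emc3, lower without overlap in NK cells (109 ± 11.6 against 87.9 ± 11.2 CPM), Jagn1, a protein of the early secretory pathway needed in neutrophils, and Sec13, a coat protein of transport vesicles and the nuclear pore, had no unadjusted p under 0.05 in any gate.

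The last group holds genes best known from neurons or of other roles. Lhfpl4, which helps to place inhibitory receptors at synapses, passed the filter in T cells only, at 0.529, 0.601 and 0.933 CPM against 1.58, 1.47, 1.68 and 1.37 CPM. The genotypes did not overlap, but the values rest on 98 UMIs in all (log2 difference 1.17 ± 0.35, edgeR adjusted p = 0.352). Tatdn2, a member of the TatD nuclease family, had 76.0, 73.1 and 72.0 CPM in T cells against 56.8, 64.8, 50.8 and 51.7 CPM, again apart (log2 difference -0.32 ± 0.11, edgeR adjusted p = 0.435), and its levels in NK cells were also apart, at 115 ± 9.16 against 97.2 ± 3.60 CPM (SD, n = 3 and 4).

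Timp4, an inhibitor of matrix metalloproteinases, and Syn2, a synaptic vesicle protein whose gene it lies within, passed the filter in fibroblasts only. Timp4 stood there at 4.17, 8.08 and 0 CPM against 18.6, 12.9, 3.98 and 0 CPM, with a 0 in each genotype (log2 difference 1.73 ± 0.74, edgeR adjusted p = 1.00). Syn2 had a log2 difference of -0.66 ± 0.57, and Tamm41, an enzyme of mitochondrial cardiolipin synthesis, was tested in 5 gates with log2 differences from 0.01 to 0.72.

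**Figure D4:**
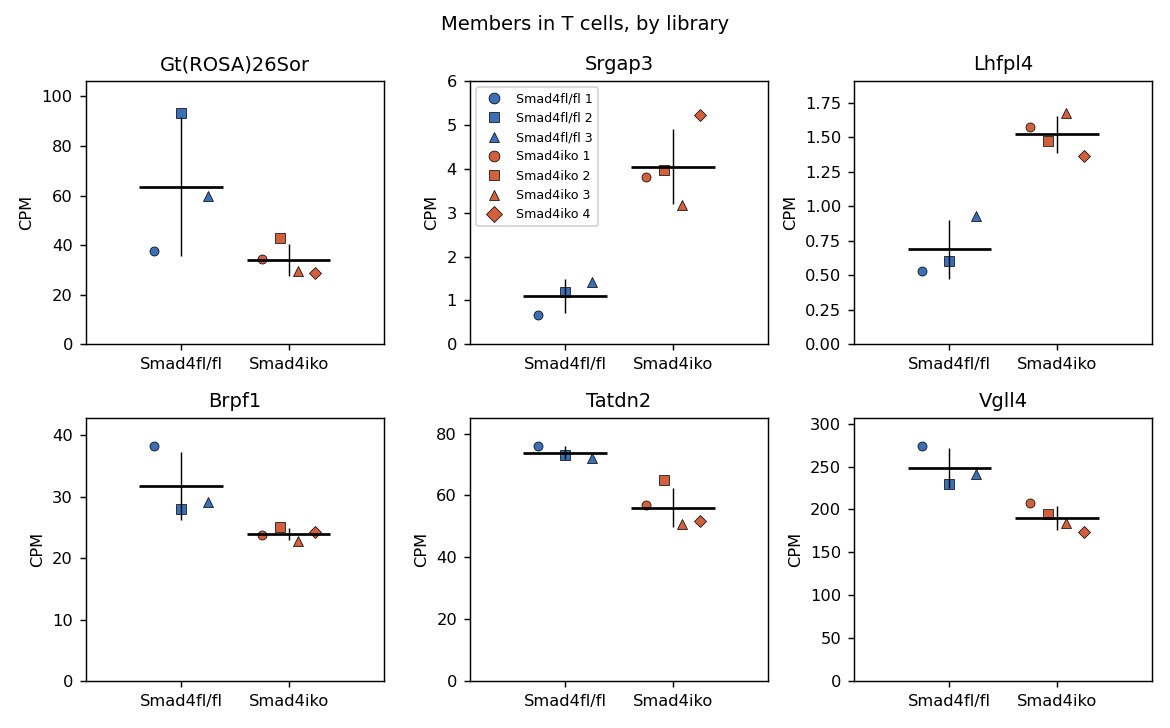
The 6 members with an unadjusted p under 0.05 in T cells, in CPM of the T cell gate (vertical axes, each with its own scale from 0), with 1 point per library, the bar at the group mean and the line spanning 1 SD to each side. Srgap3 and Lhfpl4 are higher and Brpf1, Tatdn2 and Vgll4 lower in every Smad4iko library, while Gt(ROSA)26Sor overlaps; the panels were chosen by these values.

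T cells held the most such members: 6 of 26 tested had an unadjusted p under 0.05 (23.1%), against 9.93% of the 11440 genes tested there, and 6 did not overlap, against 10.2%. Those members lie from 0.12 Mb below to 1.78 Mb above Gt(ROSA)26Sor, with members between them that gave no such p. In NK cells it was 3 of 22 members (13.6%, against 7.45%) and in B cells 2 of 19 (10.5%, against 6.90%). Alveolar macrophages gave 1 of 26 (3.85%, against 6.29%) and general capillary cells 0 of 20 (against 5.47%). Neutrophils gave 2 of 17 (11.8%, against 8.98%), aerocytes 1 of 10 (10%, against 9.27%), fibroblasts 1 of 19 (5.26%, against 3.64%) and the Cd209a-Flt3 gate 0 of 17 (against 4.36%).

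The shares were then set out along chromosome 6. Over the 9 gates an unadjusted p under 0.05 was found in 9.09% of member tests, 30.8% of the 13 tests of the other genes between the members, 9.58% of tests of genes within 5 Mb outside the interval, 13.8% of tests of genes 5 to 25 Mb away and 6.61% of tests of genes farther off on the chromosome. All 7 calls on chromosome 6 belonged to genes 5 to 25 Mb away. None of the 18 other genes between the outermost members was called, but most had too few UMIs to be tested. Of the 18, 7 passed the filter in whole libraries and 5 in T cells. By the naming rule 2 of the genes 5 to 25 Mb away are given. Pianp, 11.9 Mb above the locus, had 323 UMIs in NK cells of the controls and 1 in those of Smad4iko mice (edgeR adjusted p = 8.72e-04), 257 and 1 in T cells (adjusted p = 0.00678) and 1465 and 7 in alveolar macrophages (adjusted p = 0.00344). Hebp1, 22.1 Mb above, fell from 83.6 ± 27.3 to 6.84 ± 2.08 CPM in general capillary cells (SD, n = 3 and 4; log2 difference -3.63 ± 0.29, edgeR adjusted p = 5.85e-04).

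**Figure D5:**
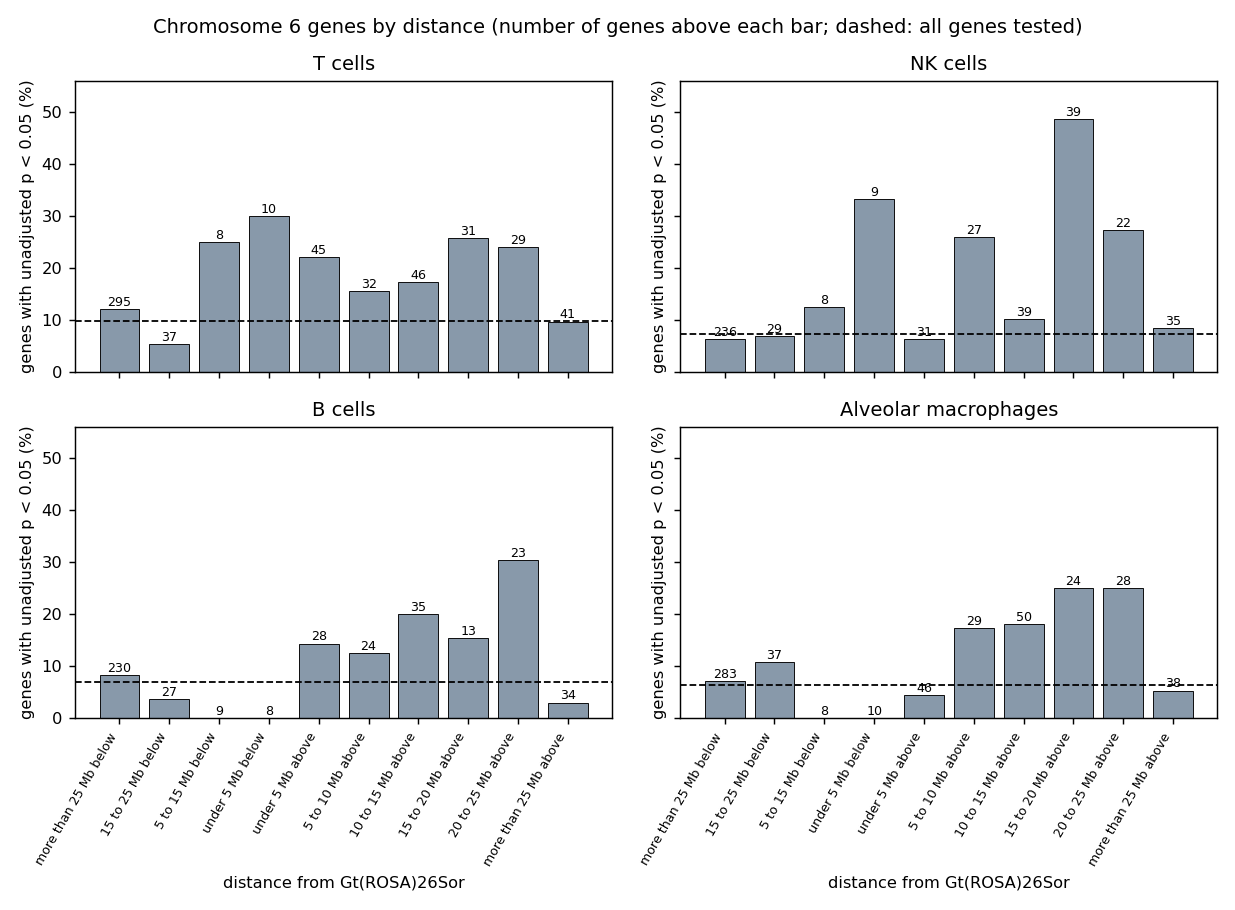
Share of chromosome 6 genes with an unadjusted p under 0.05 (vertical axis, percent) by distance from Gt(ROSA)26Sor in 4 of the gated cell types, with the number of genes tested above each bar and the share over all genes tested as a dashed line. Bins just below the locus hold at most 10 genes. In NK cells the share is 33.3% under 5 Mb below, 6.45% under 5 Mb above and 48.7% at 15 to 20 Mb above. The last of these regions holds Klrb1c and Klre1, which were among the markers of the NK gate. Gt(ROSA)26Sor and Thumpd3 are counted in the bin under 5 Mb below.

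In the bin 15 to 20 Mb above the locus, where the natural killer gene complex lies, 19 of 39 genes tested in NK cells had an unadjusted p under 0.05. Klrb1c and Klre1, genes of that complex, were among the markers of the NK gate, so the gate was not independent of this bin. In the bin under 5 Mb above, which holds most members, such a p was found for 2 of 31 genes in NK cells and 10 of 45 in T cells. It was found for 4 of 28 in B cells and 2 of 46 in alveolar macrophages. Distances are between the ends of the annotated genes, and shares over bins of few genes move by several percent with 1 gene.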

How the data were processed

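Droplet-based 3' single-cell RNA sequencing was done on lung of 7 mice, 1 library each. The authors deposited counts (whole-number UMIs per gene and barcode, not normalized), written by Cell Ranger 6.1.1 per the file headers; fastp, UMI-tools and the build mm10 are named in the submitters' processing notes, and every barcode held at least 500 UMIs. Of 31253 gene IDs, 31184 matched GENCODE M21.

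Filters of 300 genes, 600 UMIs (minimum) and 20% mitochondrial UMIs (maximum) left 50955 cells, and 1284 predicted doublets (2.52%; scrublet in scanpy 1.11.5, expected rate 6%) were removed. A cell entered 1 of 14 gates with UMIs of at least 3 of its 5 or 6 markers and of under 3 of every other set, which 86.9% did. UMIs summed per mouse and gate were tested with edgeR 4.0.16 (filterByExpr, TMM, quasi-likelihood, Benjamini-Hochberg over all genes of the gate, threshold 0.05), and effects against T cells with limma 3.58.1 on log2 CPM differences within a mouse (prior count 2). DESeq2 1.42.0, other scalings and filters, a sex term, stricter gates and left-out libraries were alternatives. Scripts were tested on simulated data.

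CPM are UMIs per 1000000 UMIs of the library or gate. Overlap of the genotypes was judged on these CPM, without TMM, so it can differ from the fitted log2 difference. Members, gene lists and tests were chosen with earlier results of these data known. The naming rule takes Gt(ROSA)26Sor, called members, members without overlap in at least 50% of their gates (Lhfpl4), called genes between the members, and at most 5 other chromosome 6 genes within 25 Mb called in at least 2 gates; other members described at length were chosen after their values were seen. The labels name separate mouse samples; p-values measure the spread between them.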

Additional observations from a re-analysis of the deposited data

Results flagged for a closer look

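Of the 41 sets of 4 Smad4iko values behind the genes and gates named here, 4 held a library far from the other 3 (by Dixon's ratio of gap to range), and chance gives about 1 in 20. Gt(ROSA)26Sor in NK cells stood at 39.2 CPM in Smad4iko 2 and at 20.9 to 21.9 CPM in the others, so its lower level there rests on 3 of the 4 mice. Gt(ROSA)26Sor in alveolar macrophages stood at 19.7 CPM in Smad4iko 4 and at 28.6 to 30.1 CPM in the others. In the same library and gate Creld1 stood at 5.43 CPM, against 3.50 to 3.76 CPM. Vgll4 in NK cells stood at 324 CPM in Smad4iko 1 and at 267 to 274 CPM in the others. Groups of 3 were not examined in this way.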

How the results depend on the processing

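No member was called in whole libraries under any of the 15 alternatives run, and no difference against T cells under any of 10. In the gates 1 member test was called with DESeq2 (Srgap3 in T cells) and 3 with no filter on low counts (Srgap3 in T cells, Irak2 and Setd5 in neutrophils), and 0 under the other alternatives of the full gates. T cells with a gamma-delta receptor UMI, added after seeing the data, gave 1 call, and leaving out the Cd209a-Flt3 gate or the gamma-delta T cells, also added, gave 0. Of 576 alternative values of 41 named results, 562 kept their direction and side of the threshold, 3 passed it in the same direction and 11, in 5 results, changed sign; the cause was not tested. Thumpd3 in whole libraries ranged from -0.11 to 0.0017 and Setd5 from -0.70 to 0.019 over left-out libraries. Gt(ROSA)26Sor ranged from -0.16 to 0.25 in alveolar macrophages and from -0.40 to 0.086 in general capillary cells, and in fibroblasts it was 0.105 without Smad4iko 3 and 4. The labels do not say whether sample numbers mark pairs. In whole libraries, deviations from the group mean correlated at 0.547, -0.194 and 0.485 for numbers 1, 2 and 3. Libraries of different number gave -0.57 to 0.31, so in whole libraries numbers 1 and 3 deviated alike and number 2 did not. The likeness was weaker within gates. In T cells numbers 1, 2 and 3 gave 0.224, -0.0586 and 0.194, and different numbers -0.199 to 0.115. In alveolar macrophages they gave 0.167, -0.129 and 0.163, and different numbers -0.179 to 0.156. The libraries numbered 3 were also the only female ones. With the number as a replicate block 0 members were called, in whole libraries and in gates. In whole libraries 2 of 32 members had an unadjusted p under 0.05 with the block, against 1625 of 16141 genes, and 1 without it. In gates 14 of 171 member tests had such a p with the block (8.19%, against 5.65% of all tests). Without it there were 16 of 176 (9.09%, against 6.91%). Gt(ROSA)26Sor in general capillary cells was 0.057 with the block. Scaling by library size put the median log2 difference of all genes at -0.175 in whole libraries, -0.14 in B cells and -0.11 in neutrophils, and DESeq2 at -0.169 in neutrophils. Depth limits the low members: Prrt3, Atp2b2 and Hrh1 held 139, 139 and 236 UMIs in all, and no gate could test them.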

Other observations

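Other genes between the outermost members that were tested in T cells gave an unadjusted p under 0.05 in 3 of 5 cases. Il17re and Il17rc, another interleukin-17 receptor gene, were higher and Gm26982, a gene model with no name, was lower, none past the threshold. Gm26982 stood at 14.9, 12.4 and 13.9 CPM in T cells of Smad4fl/fl and at 10.9, 8.61, 4.52 and 5.16 CPM in Smad4iko (log2 difference -0.85 ± 0.25, edgeR adjusted p = 0.347), without overlap. In B cells it stood at 15.3, 11.9 and 6.92 CPM against 6.45, 7.75, 3.79 and 5.07 CPM, with overlap at 1 library (log2 difference -0.85 ± 0.33, edgeR adjusted p = 0.678). These genes were chosen after their values were seen.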
